A study of Gallus gallus with 15 samples.

Results

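The proteasome is the barrel-shaped protease that degrades proteins tagged with ubiquitin. Its 20S core is built of outer rings of alpha subunits (PSMA genes), which gate the entrance, and inner rings of beta subunits (PSMB genes), some of which cut the substrate. The 19S regulatory particle caps the core with a ring of ATPases (PSMC genes), which unfold the substrate, and non-ATPase subunits (PSMD genes), which bind and remove ubiquitin. Activators of another kind (PSME genes) can bind the core in its place, and PSMF1 and the PSMG genes encode an inhibitor of the core and chaperones of its assembly. Protein breakdown by this route is known to rise in skeletal muscle of mammals when insulin is low, and the roles given here are those known from mammals and yeast.

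Gene symbols of the array annotation that begin with PSM, a letter from A to G and a digit were collected. They comprised 37 symbols, of which PSMC3IP names a DNA recombination protein and was set aside, which left 36 proteasome genes among the 9243 genes tested. These 36 genes were 7 of the alpha ring, 6 of the beta ring, 5 ATPases, 11 PSMD genes, 2 activators, PSMF1 and 4 assembly chaperones. PSMB6, PSMC4, PSMD4, PSMD8 and PSMD11 were not among them, so the beta ring and the 19S particle are covered in part. Among the PSMD genes, PSMD5, PSMD9 and PSMD10 encode chaperones of the 19S base rather than subunits of the finished particle. They are counted below with the genes of the 19S particle, also among the 29 genes of the core and the 19S particle. Abdominal adipose tissue of 15 male broiler chicks aged 16 to 17 days was measured on 1 Affymetrix Chicken Genome Array per bird. Fed birds (n = 5) ate ad libitum and fasted birds (n = 5) were without feed for 5 h, both with injections of normal porcine serum as vehicle. Insulin-neutralized birds (n = 5) ate but were injected with porcine anti-insulin serum at 0, 2 and 4 h, so that they differed from fed birds in the serum and from fasted birds in both serum and feed. Values are log2 expression as deposited, and a gene was called where the limma p, adjusted by Benjamini-Hochberg over the 18612 probe sets that passed the filter, was under 0.05. Where a gene had several probe sets kept, the one with the highest mean stood for it.

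Tissue identity was checked with markers of 8 cell types. All 10 adipocyte markers were measured, and their mean lay between 11.61 and 11.84 in fed, 11.29 and 11.94 in insulin-neutralized and 11.68 and 12.05 in fasted birds. The mean of 6 macrophage markers ran from 9.53 to 10.24, 9.84 to 10.44 and 10.04 to 10.62 in the same order, that of 6 endothelial markers from 10.96 to 11.72, 11.31 to 11.78 and 11.21 to 11.89, and that of 4 skeletal muscle markers from 5.50 to 7.63, 5.60 to 8.23 and 5.42 to 6.27. Each of these last 3 lists had 1 marker called between fasted and fed birds, higher in the macrophage and endothelial lists and lower in the muscle list, and of the adipocyte markers 2 were higher and 2 lower. These were LPIN1 and PNPLA2 (3.92 and 0.50 on the log2 scale) and CEBPA and PPARG (-1.48 and -0.82). The adipocyte mean thus combines opposite changes. The macrophage marker called was TLR4, a dim probe set (4.03 in fed, 5.31 in fasted birds), the endothelial one CDH5 (0.44) and the muscle one ACTA1 (-1.10). Of the endothelial markers not called, KDR stood at -0.87 and TIE1 at -0.01, and PECAM1, TEK and VWF were above 0. In insulin-neutralized vs. fasted birds LPIN1 and TLR4 were called lower and ACTA1 higher. No marker was called in insulin-neutralized vs. fed birds. Of the T cell, erythroid, mesothelial and fibroblast markers 0 were called, and the mean of 2 mesothelial markers varied most between birds, from 7.95 to 12.18 in fed, 8.59 to 11.50 in insulin-neutralized and 8.67 to 11.86 in fasted birds. Their part in the results below was not tested, and in such bulk tissue fewer cells of a type and less RNA per cell cannot be told apart. Arrays of fed birds 4 and 5 had the lowest mean correlation with the other arrays, 0.955 and 0.958 against 0.963 to 0.977.

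In fasted compared to fed birds, 1 proteasome gene was higher and 5 were lower, with 30 not called. Among all genes tested 4.93% were called higher and 5.77% lower, 10.7% in all. Ranges of fed and fasted birds lay apart in 1 gene upward and 3 downward, beside 4.37% and 5.1% of all genes. The gene that rose was PSME4, whereas those that fell were PSMB3, PSMA5, PSMD1, PSMA4 and PSMA3. By an unadjusted limma p under 0.05, 1 of the 36 was higher and 11 lower with fasting, beside 11.1% and 16.3% of all genes. Insulin neutralization compared to fed birds raised PSME4 and lowered 0 of the 36, where 0.281% of all genes were called higher and 0.314% lower, 0.595% in all. Ranges lay apart in 1 gene upward and in 2 downward (2.14% and 2.85% of all genes). At an unadjusted p under 0.05 from limma, 1 was higher and 14 lower there, beside 8.34% and 11.7% of all genes. Between insulin-neutralized and fasted birds, PSME4 was lower and 0 were higher, with 2.67% of all genes called lower and 1.69% higher, 4.36% in all. Ranges lay apart in 1 gene upward, PSMG2, and in 4 downward (4.63% and 4.94% of all genes). At an unadjusted p under 0.05 there, 2 were higher and 4 lower, beside 9% and 9.38%.

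PSME4 encodes PA200, a large nuclear activator that opens the core without ATP and is known for the breakdown of acetylated histones. Its main probe set measured 11.67, 11.64, 11.34, 10.92 and 11.21 in fed birds 1 to 5. Insulin-neutralized birds 1 to 5 had 12.64, 12.51, 12.01, 12.21 and 12.03. Fasted birds 1 to 5 had 12.95, 12.91, 13.14, 13.16 and 12.97. The 3 groups did not overlap, with all insulin-neutralized birds above all fed and below all fasted birds. Relative to fed birds, PSME4 was up 3.19-fold with fasting (1.67 ± 0.16 on the log2 scale, SE, limma adjusted p = 2.42e-05) and up 1.90-fold with insulin neutralization (0.93 ± 0.16, SE, adjusted p = 0.0292). Set directly against fasted birds, the insulin-neutralized birds had 1.68-fold less (adjusted p = 0.0175).

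The other 2 probe sets of PSME4 gave the same order without overlap. Their names share a root, and whether they read PSME4 independently of each other was not checked. One measured 6.93 ± 0.24 in fed, 7.91 ± 0.29 in insulin-neutralized and 8.88 ± 0.21 in fasted birds (mean and SD of 5 birds each), and the other 7.04 ± 0.45, 7.91 ± 0.31 and 8.96 ± 0.31. Fasted birds were 3.86-fold and 3.78-fold above fed birds by these (adjusted p = 9.75e-06 and 0.000138 from limma), and insulin-neutralized birds 1.97-fold and 1.84-fold (adjusted p = 0.0197 and 0.0862), so that the last of the 4 was not called. The rise with fasting was called under all 28 alternatives. The rise with insulin neutralization was not called under 8 of the 28, among them without insulin-neutralized bird 1, 2, 3 or 4, with no filter, with only these groups in the fit or without fed birds 4 and 5 (adjusted p = 0.0832), with adjusted p from 0.00429 to 0.116 over all alternatives.

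**Figure D1:**
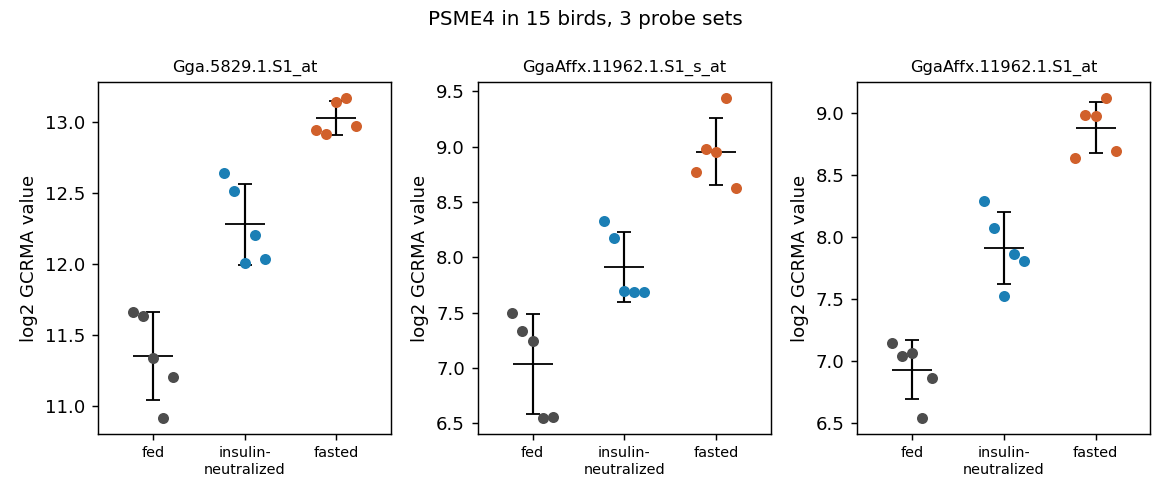
PSME4 by bird in each of its 3 probe sets. The y axis is the log2 GCRMA value, points are birds 1 to 5 from left to right, and bars are the mean and SD (n = 5). In each panel the fed, insulin-neutralized and fasted birds occupy separate ranges in that order.

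PSME3, the other activator, encodes PA28 gamma, a nuclear regulator that promotes breakdown of proteins without ubiquitin. It measured 11.63, 11.42, 11.49, 11.58 and 11.91 in fed, 11.15, 11.44, 11.34, 11.33 and 11.50 in insulin-neutralized and 11.22, 11.38, 11.38, 11.22 and 11.21 in fasted birds. By this main probe set all fasted birds lay below all fed birds, and insulin-neutralized birds overlapped both groups. The log2 fold change in fasted vs. fed birds was -0.33 (SE 0.10), which was not called (adjusted p = 0.0551 from limma), and that in insulin-neutralized vs. fed birds was -0.25 (adjusted p = 0.230). Without fed birds 4 and 5 the value in fasted vs. fed birds was -0.23 (limma adjusted p = 0.133). A second probe set gave -0.45 and -0.44 with all birds (adjusted p = 0.0502 and 0.149), and its fed and fasted ranges overlapped. The activators thus differed in sign, in both comparisons with fed birds and in each of their probe sets tested.

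In the 20S core, all 7 alpha genes and 6 beta genes (without PSMB6) were measured. Of these 13, 4 fell with fasting, where 5.77% of all genes did. PSMB3, a beta subunit without catalytic activity, measured 12.02, 11.70, 11.96, 12.52 and 12.15 in fed birds and 11.42, 11.72, 11.60, 11.37 and 11.62 in fasted birds. Fed bird 4 was the highest and fed bird 2 lay within the fasted range. PSMB3 was 1.44-fold lower with fasting (-0.53 ± 0.13 on the log2 scale, SE, limma adjusted p = 0.0228). In insulin-neutralized birds it measured 11.56, 11.72, 11.58, 11.68 and 11.89, a log2 fold change of -0.39 against fed birds that was not called (adjusted p = 0.181).

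PSMA5, an alpha subunit, measured 12.37, 12.11, 12.38, 12.91 and 12.40 in fed, 12.01, 12.11, 12.08, 12.21 and 12.12 in insulin-neutralized and 11.89, 12.29, 11.91, 11.81 and 11.88 in fasted birds. Fasted bird 2 and fed bird 2 were those that brought the fed and fasted ranges together. Fasting lowered it 1.39-fold (SE 0.13 on the log2 scale, limma adjusted p = 0.0348). PSMA3 and PSMA4, alpha subunits as well, were each 1.23-fold lower, from 13.11 ± 0.10 to 12.81 ± 0.13 and from 12.96 ± 0.12 to 12.66 ± 0.14 (SD, n = 5 each, adjusted p = 0.0404 and 0.0499). PSMA4 overlapped between fed and fasted birds. PSMA3 did not, but only by a narrow margin (lowest fed bird 12.978, highest fasted bird 12.969). In insulin-neutralized birds they measured 12.98 ± 0.08 and 12.90 ± 0.08, and neither comparison with that group was called.

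The remaining core genes were not called in any of the 3 comparisons. PSMA1 was the alpha gene with the highest fold change in fasted vs. fed birds, at 0.20 on the log2 scale (95% confidence interval -0.03 to 0.43). PSMB7, which carries the trypsin-like active site, stood at the upper end of the beta ring in fasted birds, at -0.10 (-0.28 to 0.08), and measured 12.47 ± 0.17 in fed, 12.22 ± 0.05 in insulin-neutralized and 12.37 ± 0.07 in fasted birds. Second probe sets of PSMA6, PSMB1, PSMB5 and PSMB7 had the opposite sign to the main one in fasted vs. fed birds. They gave 0.46 against -0.12, 0.24 against -0.12, 0.07 against -0.19 and 0.15 against -0.10, and none of these values was called. In insulin-neutralized vs. fed birds, second probe sets of PSMA2, PSMA6 and PSMB1 gave 0.03, 0.63 and 0.09 where the main ones were below 0, again without a call. That of PSMA2 lay near the filter limit of 3. PSMB5, which carries the chymotrypsin-like site, was read from a probe set of the _x_at type, whose probes can match other transcripts.

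In the 19S particle, counted with PSMD5, PSMD9 and PSMD10, 1 of 16 genes fell with fasting, a share near the 5.77% of all genes. This was PSMD1, a scaffold of the base that holds the ubiquitin receptor ADRM1. It measured 11.56, 11.26, 11.21, 11.69 and 11.31 in fed, 10.97, 11.19, 11.18, 11.18 and 11.27 in insulin-neutralized and 10.92, 11.20, 11.05, 11.04 and 10.83 in fasted birds. All fasted birds lay below all fed birds, the nearest of them by a narrow margin, and insulin-neutralized birds overlapped both. The fall was 1.32-fold (-0.40 ± 0.11 on the log2 scale, SE, limma adjusted p = 0.0340).

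Of the 28 alternatives, 4 did not call PSMB3 in fasted vs. fed birds, 11 did not call PSMD1, 12 PSMA5, 14 PSMA3 and 21 PSMA4. None of the 5 was called with insulin-neutralized arrays left out of the fit, and PSMA3 and PSMA4 were not called with arrays centred on their medians or quantile normalized. Among birds left out singly, the call of PSMB3 was lost without fasted bird 1 or 4, that of PSMA5 without fed bird 1, 3 or 5 or fasted bird 1, 3, 4 or 5, that of PSMD1 without fed bird 1 or 4 or fasted bird 1, 3, 4 or 5, that of PSMA3 without fed bird 1, 2 or 3, insulin-neutralized bird 1, 3 or 5 or fasted bird 1, 4 or 5, and that of PSMA4 without any 1 bird other than fed bird 5 and fasted bird 2. Without fed birds 4 and 5, PSMA3 and PSMA4 were called and PSMB3, PSMA5 and PSMD1 were not (limma adjusted p = 0.0690, 0.0831 and 0.0798), with ranges over all alternatives of 0.00824 to 0.0765 for PSMB3, 0.0107 to 0.112 for PSMA3, 0.00875 to 0.128 for PSMA4, 0.0151 to 0.112 for PSMA5 and 0.0269 to 0.0955 for PSMD1.

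PSMC5, an ATPase, was the 19S gene with the lowest fold change in insulin-neutralized birds. It measured 11.51, 11.41, 11.40, 11.96 and 11.91 in fed birds, 11.02, 11.23, 10.88, 11.15 and 11.25 in insulin-neutralized birds and 11.27, 11.16, 11.32, 11.20 and 11.43 in fasted birds. Every insulin-neutralized bird lay below every fed bird, and the highest fed birds were 4 and 5. The log2 fold change was -0.53 (SE 0.13) with insulin neutralization and -0.36 with fasting, and neither was called (adjusted p = 0.0736 and 0.0877 from limma). Without fed birds 4 and 5 these values of PSMC5 were -0.34 and -0.16 (adjusted p = 0.228 and 0.341). PSMC2, another ATPase, was at the other end of its ring in fasted vs. fed birds, at -0.07 (95% confidence interval -0.31 to 0.18). PSMD13, a subunit of the 19S lid, had the highest value of the PSMD genes there, at 0.19 (-0.14 to 0.53), and lay at -0.44 in insulin-neutralized vs. fasted birds (adjusted p = 0.142), with no overlap between these groups. A second probe set of PSMD13 gave 0.18 in fasted vs. fed and -0.17 in insulin-neutralized vs. fasted birds, with overlap. In insulin-neutralized vs. fed birds it gave 0.01 where the main one gave -0.25, neither called. It measured 3.19 to 3.97, near the filter limit of 3.

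**Figure D2:**
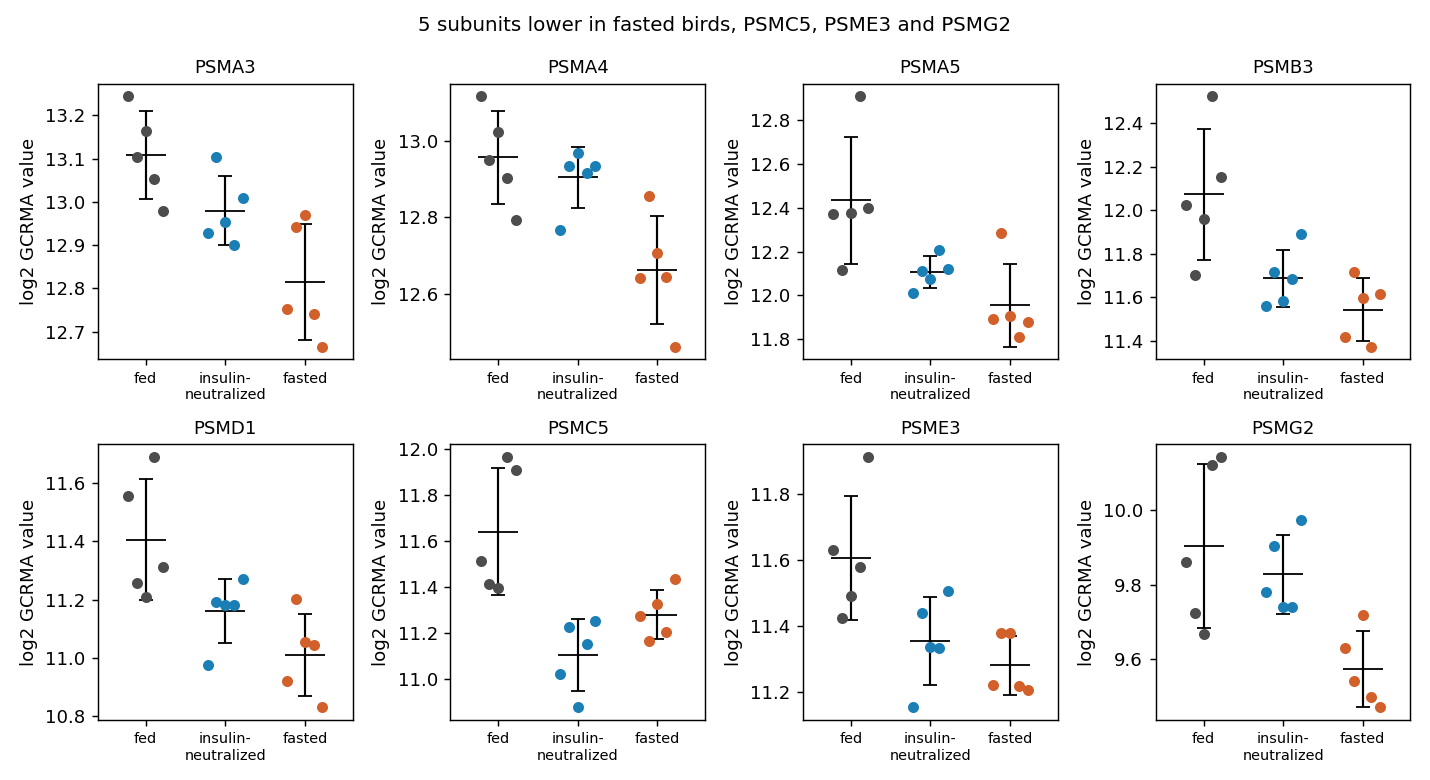
Values by bird for the 5 subunits that fell with fasting and for PSMC5, PSME3 and PSMG2, which were not called. The y axes are log2 GCRMA values that do not start at 0, points are birds 1 to 5 from left to right, and bars are the mean and SD (n = 5). In PSMA3, PSMD1 and PSME3 all fasted birds lie below all fed birds.

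Among assembly factors, PSMG1 and PSMG2 encode a pair of chaperones that starts the alpha ring. PSMG2 measured 9.90 ± 0.22 in fed, 9.83 ± 0.11 in insulin-neutralized and 9.57 ± 0.10 in fasted birds (mean and SD of 5 birds each), a log2 fold change of -0.33 with fasting that was not called (adjusted p = 0.0638 from limma) and was -0.18 without fed birds 4 and 5 (adjusted p = 0.230). PSMG1 ran from 9.77 to 10.93 in fed, 9.51 to 9.76 in insulin-neutralized and 9.56 to 10.93 in fasted birds. Its insulin-neutralized birds thus lay below all fed birds, and its log2 fold change there was -0.61 (SE 0.25, adjusted p = 0.243). PSMG3 and PSMG4, which form a second such pair, stood at -0.08 (SE 0.14) and -0.18 (SE 0.25) in fasted vs. fed and at -0.01 and -0.25 with the same SE in insulin-neutralized vs. fed birds, none of them called. Another probe set of PSMG4 had the opposite sign, at 0.07 and 0.98 (SE 0.62) in these comparisons. A further one stood at -0.10 and -0.27, and neither probe set was called. PSMF1, the inhibitor PI31, stood at -0.12 (95% confidence interval -0.46 to 0.22) and -0.21 (-0.54 to 0.13), neither called. Without fed birds 4 and 5, PSMG4 stood at 0.11 and 0.05 and PSMF1 at 0.09 and 0.00.

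Of the 36 genes, 31 were below the fed mean in fasted birds, with a median log2 fold change of -0.18, where 57.2% of all genes tested were below it, 42.8% above, and their median was -0.05. In insulin-neutralized birds 34 of 36 were below the fed mean, with a median of -0.20 (54.7% below, 45.3% above and -0.03 over all genes). The exceptions in fasted birds were PSMA1, PSMD9, PSMD12, PSMD13 and PSME4, and in insulin-neutralized birds PSMD12 and PSME4. For the 29 genes of the core and the 19S particle the medians were -0.18 and -0.19, levels 11.8% and 12.6% below fed birds. Against fasted birds, 15 of the 36 genes were higher in insulin-neutralized birds (54.4% of all genes), 5 of the 7 alpha genes among them. Both comparisons with fed birds use the same fed birds, so these medians are not independent of each other. Without fed birds 4 and 5 the medians over the 36 genes were -0.11 and -0.12, and 27 and 28 genes were below the fed mean. Over all genes tested the medians were then -0.05 and -0.02, and 57% and 53.9% were below the fed mean. With the probe set of lowest mean standing for each gene, the medians of the 36 genes were -0.13 and -0.15, beside -0.05 and -0.04 over all genes. Then 27 and 30 genes were below the fed mean, beside 57.5% and 56% of all genes.

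**Figure D3:**
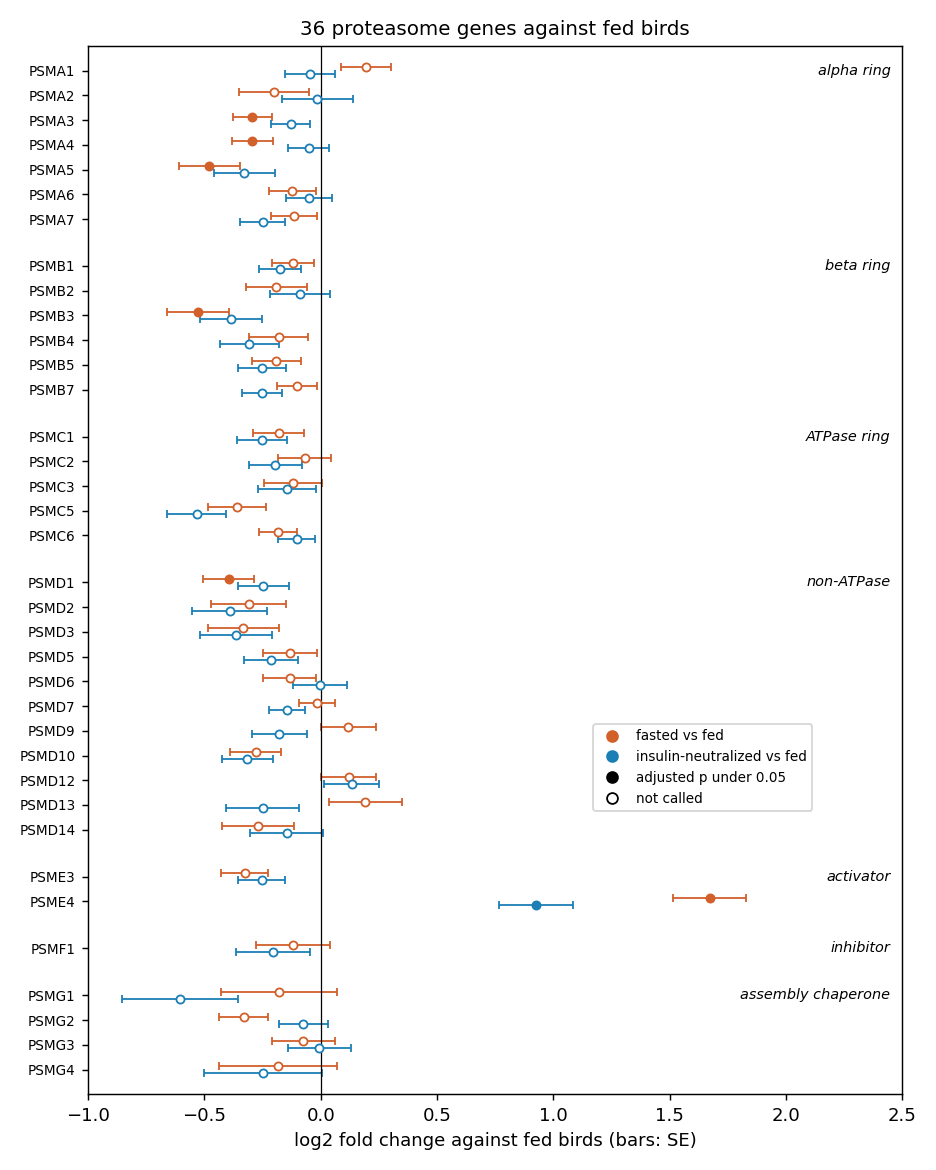
Log2 fold changes of the 36 proteasome genes against fed birds, for fasted (orange) and insulin-neutralized birds (blue), grouped by part of the complex. Points are limma estimates with their SE, filled where the adjusted p was under 0.05. Most points lie to the left of 0 and PSME4 lies far to the right in both comparisons.

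Between birds, the 29 genes of the core and the 19S particle were high as a set in fed bird 4, where their median deviation from each gene's mean over 15 birds was 0.33 on the log2 scale. The medians were 0.19, -0.05, 0.05 and 0.17 in fed birds 1, 2, 3 and 5. They ran from -0.16 to 0.04 in insulin-neutralized and from -0.09 to 0.01 in fasted birds, and fed bird 2 lay within both ranges. In each of fed birds 1, 4 and 5, 5 of the 29 genes were below their own mean, whereas 25 were in insulin-neutralized bird 1 and in fasted bird 4. PSME4 had its lowest value in fed bird 4.

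**Figure D4:**
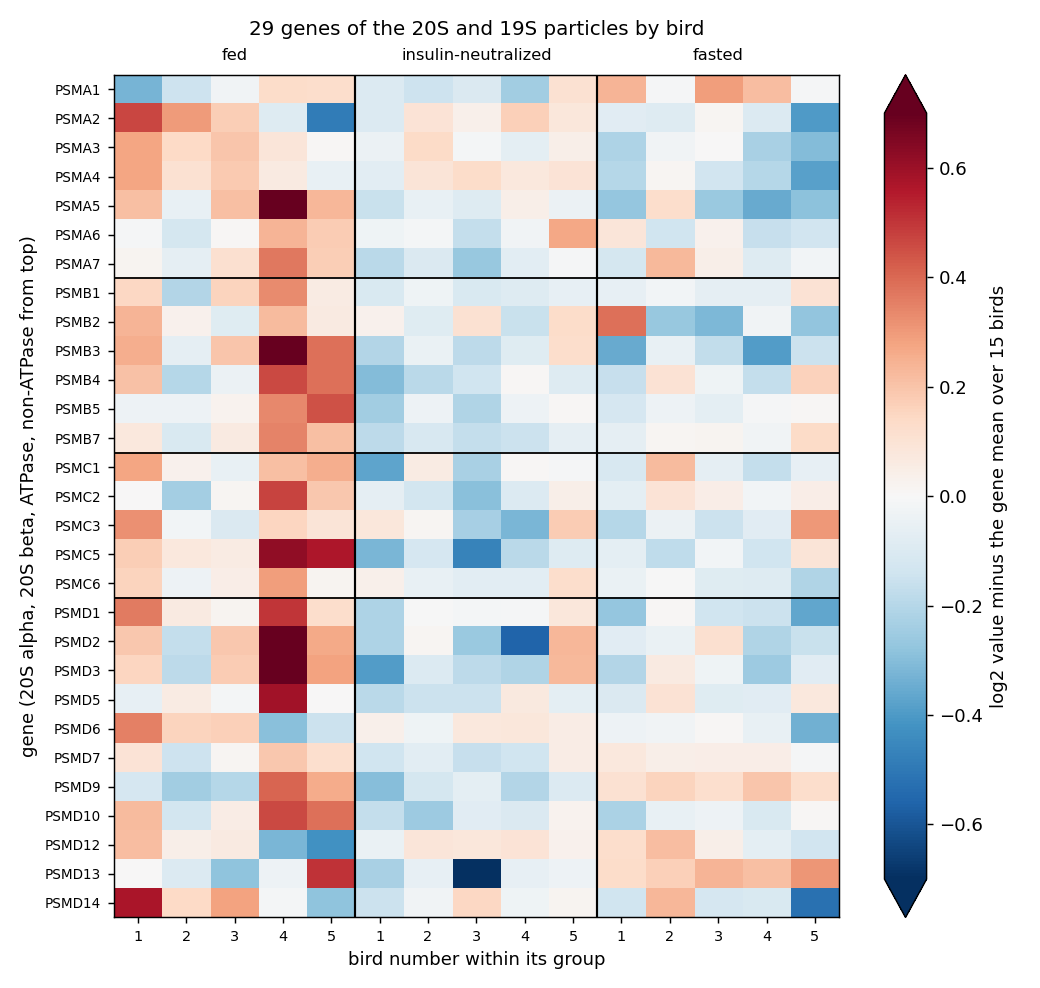
Each row is 1 of the 29 genes of the 20S and 19S particles, with PSMD5, PSMD9 and PSMD10 counted among them, and each column a bird. Colour is the log2 value minus the gene's mean over 15 birds, with 4 cells beyond the colour limits of -0.7 and 0.7. Fed bird 4 is the column with the most red, and PSMD6 and PSMD12 are blue in it.

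Within groups, the deviations of the 29 genes from their group means had a median pairwise correlation of 0.36 over the 15 birds (406 pairs), against 0.00 for all pairs of genes tested. Beta ring genes had a median of 0.70 (15 pairs), ATPases 0.38 (10 pairs) and alpha ring genes 0.14 (21 pairs). Without fed birds 4 and 5 the median over the 29 genes was 0.32 and that of the beta ring 0.55 over 13 birds. The deviations of PSME4 had a median correlation of -0.47 with those of the 29 genes, which became -0.19 without fed birds 4 and 5. These are descriptions, since all genes of a bird share its array and its RNA.

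Of 36 genes listed for proteins that work with the proteasome, 30 were measured, and 1 rose and 1 fell with fasting, no larger a share than the 4.93% and 5.77% of all genes. AKIRIN2, which carries assembled proteasomes into the nucleus in human cells, measured 11.03, 10.83, 11.15, 11.40 and 11.19 in fed and 11.52, 11.82, 11.61, 11.40 and 11.61 in fasted birds. Insulin-neutralized birds had 11.15, 11.05, 11.09, 10.76 and 11.19, and the fasted birds lay above both other groups, fasted bird 4 only just above fed bird 4. AKIRIN2 rose 1.39-fold with fasting (SE 0.12 on the log2 scale, limma adjusted p = 0.0222), and the insulin-neutralized birds had 1.46-fold less than fasted birds (adjusted p = 0.0201). The call against fed birds was lost under 3 of 28 alternatives, among them without fasted bird 2 and with only these groups in the fit (adjusted p from 0.00609 to 0.0588 over all alternatives), and that against fasted birds under 1 of 28 (0.00672 to 0.0578).

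VCP, the ATPase that extracts ubiquitinated proteins before their breakdown, fell 1.29-fold with fasting, at 13.20 ± 0.25 against 13.58 ± 0.12 (SD, n = 5 each). Its adjusted p of 0.04998 from limma lay just under the threshold, and 22 of 28 alternatives did not call it. NFE2L1, the transcription factor that raises proteasome genes when the proteasome is blocked, stood at -0.30 in fasted and -0.23 in insulin-neutralized vs. fed birds (adjusted p = 0.176 and 0.371). POMP, a chaperone of the core, stood at -0.04 and -0.15, and ADRM1 at -0.30 and -0.23, of which none was called. By an unadjusted limma p under 0.05, 5 of the 30 were higher and 3 lower with fasting, beside 11.1% and 16.3% of all genes. Those higher without a call were NGLY1 and ZFAND5, each at 0.66, UBE3C at 0.47 and UBE3A at 0.29 (limma adjusted p = 0.177, 0.0642, 0.110 and 0.148). In each of them the ranges of fed and fasted birds overlapped. NGLY1 measured 9.40 and 9.65 in fed birds 4 and 5 and 10.78 to 11.07 in the other fed birds. UBE3A measured 9.64 and 9.51 in fed birds 4 and 5 and 9.92 to 10.11 in the others. ZFAND5 was 12.00 in fasted bird 3, below the lowest fed bird at 12.26. The median log2 fold change of the 30 genes was -0.04 in fasted and -0.03 in insulin-neutralized birds, beside -0.05 and -0.03 for all genes tested.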

How the data were processed

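Abdominal adipose RNA of 15 birds, 5 per group, was measured on Affymetrix GeneChip Chicken Genome Arrays. The authors deposited log2 values made by GCRMA, which corrects background by probe sequence, normalizes across arrays and summarises each probe set, with R 2.9.0, RMA and GCRMA listed by the submitters' processing notes. Groups came from the sample titles. Probe sets below 3 on at least 5 arrays were removed, as in the methods, and 96 controls were left out, which left 18612 probe sets. The filter removed 7 of the 57 probe sets of proteasome genes and kept 50, with at least 1 for each gene. A further 6 probe sets that name a proteasome gene beside another gene, among them those of PSMD4, were not used. All 36 Entrez identifiers were found in the RefSeq gene table.

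Limma 3.58.1 in R 4.3.3 estimated the 3 group means from all 15 arrays (12 residual degrees of freedom), and each comparison was adjusted over all probe sets kept. The fit was tested on simulated data. GCRMA pulls low values towards a floor, 2.18 here, which compresses differences of dim probe sets. The number of arrays limits the precision, and log2 fold changes had a median SE of 0.18. Named by rule were called genes, all PSME, PSMF and PSMG genes and the extremes of each ring or particle part in fasted vs. fed birds. PSMD9, PSMD12, PSMA2, PSMA6, PSMB1, PSMB5, PSMD6, NFE2L1, POMP, ADRM1, NGLY1, ZFAND5, UBE3C and UBE3A were named after their values were seen. Members, lists and the alternative without fed birds 4 and 5 were chosen with earlier results of these data known. Alternatives were other filters, normalizations, weights, adjustments, probe sets and fits, and each bird left out. Figures were drawn with matplotlib 3.10.9.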

Additional observations from a re-analysis of the deposited data

Results flagged for a closer look

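Of the 17 proteasome genes named by rule, 4 values stood apart from the other birds of their group by Dixon's ratio, out of 51 groups of 5 tested, of which chance would set apart about 2.5. PSMA5 was 12.29 in fasted bird 2, against 11.91 in the next bird and 11.81 in the lowest. PSMD13 was 7.73 in insulin-neutralized bird 3, against 8.27 in the next bird and 8.47 in the highest. PSMA4 was 12.77 in insulin-neutralized bird 1, against 12.92 to 12.97 in the others. PSMG3, a chaperone of the alpha ring, was 9.71 in insulin-neutralized bird 5, against 9.16 to 9.31 in the others.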

How the results depend on the processing

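Fasted vs. fed birds had 6 proteasome genes called, which became 3 with no filter, 1 with insulin-neutralized arrays left out of the fit, 2 with the replicate block and 2 with the 3 comparisons adjusted together, 8 with array weights, 7 with trend and robust moderation, 7 with 1 probe set per gene in the fit, 4 with arrays centred on their medians, 4 with quantile normalization, and 1 to 7 with 1 bird left out (1 to 3 without fed bird 1 or fasted bird 1, 3, 4 or 5). Of all probe sets tested, 9.64% were called there, 3.09% with no filter, 5.16% without insulin-neutralized arrays and 8.26% with the block. Their share was 7.07% with comparisons adjusted together, 11.7% with array weights, 9.77% with trend and robust moderation and 8.67% with centred arrays. It was 9.03% with quantile normalization, 11.5% of genes with 1 probe set per gene, and 6.34% to 9.84% with 1 bird left out. Without fed birds 4 and 5 there were 6 proteasome genes again (8.96% of all probe sets), but these were PSMA2, PSMA3, PSMA4 and PSMD6 lower and PSMD9 and PSME4 higher. The 1 gene called in insulin-neutralized vs. fed birds became 0 with no filter, with fasted arrays left out of the fit, with the replicate block and without fed birds 4 and 5, 2 (PSMC5 and PSME4) with the comparisons adjusted together, and 0 to 1 with 1 bird left out. Of all probe sets there, 0.494% were called, 0.107% with no filter, 0.0322% without fasted arrays and 0.043% with the block. Without fed birds 4 and 5 this share was 0.167%, with the comparisons adjusted together 2.06%, and with 1 bird left out 0.0376% to 0.763%. In insulin-neutralized vs. fasted birds, 1 gene became 4 with array weights, and 2 with fed arrays left out and without fed birds 4 and 5. PSME4 was in each of these sets of called proteasome genes that was not empty. Between insulin-neutralized and fasted birds 4.06% of all probe sets were called. The share was 9.61% with array weights, 5.57% with fed arrays left out and 8.12% without fed birds 4 and 5. The medians moved by less than the spread between birds, 0.10 on the log2 scale, under all 28 alternatives, but this spread is large beside the medians themselves. In fasted and insulin-neutralized vs. fed birds they moved from -0.18 and -0.20 to -0.11 and -0.12 without fed birds 4 and 5. Without fed bird 4 alone both were -0.12, beside -0.04 and -0.02 over all genes. Of 1596 repeated values of the named genes and of AKIRIN2 and VCP, 96 lost and 9 gained a call and 0 of those called changed sign. A sign change without a call occurred in 30 of them, 8 of these for PSMG3 in insulin-neutralized vs. fed birds. Replicate numbers named different birds: 7 of 15 same-numbered pairs deviated together by a correlation over 0.1 (-0.39 to 0.38), and in 12 of 30 comparisons a bird correlated best with its own number among the 5 birds of another group, where equal chances would give 6. With the block, PSMA3, PSMA4, PSMA5, PSMD1, AKIRIN2 and VCP were not called in fasted vs. fed birds, nor PSME4 in insulin-neutralized vs. fed birds, nor AKIRIN2 between insulin-neutralized and fasted birds. The cause of the lost calls was not tested.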

Other observations

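PSMC3IP, which shares the letters of the ATPase genes but encodes a partner of recombinases in meiosis, measured (log2) 6.79 ± 0.14 in fed, 6.62 ± 0.19 in insulin-neutralized and 6.67 ± 0.20 in fasted birds (mean and SD of 5 birds each) and was not called in any comparison. PSMD9, a chaperone of the 19S base, showed little spread among fasted birds, at 10.82 to 10.91, all above the insulin-neutralized birds at 10.41 to 10.65. It was not called (-0.30 ± 0.12 on the log2 scale, SE, limma adjusted p = 0.200), but was with array weights, with fed birds left out of the fit and without fed birds 4 and 5. Fed birds 4 and 5 measured 11.12 and 10.97 and the other fed birds 10.47 to 10.59.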
